A study of Mus musculus with 17 samples.

Results

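The 8 transcription factor genes described here mark parts of the nephron: Hnf4a, Hnf4g, Pax2, Pax8, Lhx1, Tfap2a, Tfap2b and Gata3. They were chosen by name, with earlier results of these data known, and were followed in kidney RNA of 17 mice. They are 8 of the 35971 genes measured and 8 of the 17011 genes that passed the filter on low counts. All mice carried a lox-stop-lox PRCC-TFE3 allele (lsl-PRCC-TFE3 KI), which makes the fusion protein of TFE3-rearranged renal cell carcinoma where Cre removes the stop. Cre was driven by the promoter of Cadherin 16 (KSP-Cre), which is active in kidney epithelium. The groups were 4 Cre(-) mice, of which replicates 1 and 2 also carried HIF1a f/f and replicates 3 and 4 carried no flox allele, 3 PRCC-TFE3 KI mice with KSP-Cre (KI), 4 KI mice with HIF1a f/f (Hif1a KO), 3 KI mice with HIF2a f/f (Hif2a KO) and 3 KI mice with both (DKO). No group had Cre without the lsl-PRCC-TFE3 allele, and no group lost a HIF gene without the fusion. The labels give neither age nor sex, and each library was taken as 1 mouse, which they do not state.

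As background, HNF4A and its paralog HNF4G are nuclear receptors that drive the differentiated gene program of the proximal tubule. PAX2 and PAX8 are paired box factors that act together in founding the kidney epithelium, and PAX8 persists in adult tubules and in renal carcinoma. LHX1, a LIM homeodomain factor, patterns the renal vesicle, TFAP2A and TFAP2B are AP-2 factors of the distal nephron, and GATA3 acts in the nephric duct and is kept in the collecting duct. These factors are therefore used to name segments of the nephron, and whole kidney RNA mixes all segments with stromal and immune cells, so that fewer cells of a type and less RNA per cell cannot be told apart.

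Upstream sequence is shown for the genes whose start sites or changes the results turn on. RefSeq start sites on GRCm38.p6 were matched for 7 of the 8 genes, and the 250 bases before each start were searched on both strands for the M-box, a motif of TFE3 and its relatives (TCACATGA, TCACGTGA, TCATATGA or TCATGTGA), and for the core of the HIF motif (ACGTG or GCGTG), which is also contained in TCACGTGA. Capitals mark matches to the HIF core, and no window of the 7 genes held an M-box. Hnf4g had no entry. Hnf4a has 2 RefSeq windows, and both are given because its transcripts are told apart by their start: the upstream window at chr2:163506607-163506856 and the downstream window at chr2:163546905-163547154, both on the plus strand.
Hnf4a upstream start: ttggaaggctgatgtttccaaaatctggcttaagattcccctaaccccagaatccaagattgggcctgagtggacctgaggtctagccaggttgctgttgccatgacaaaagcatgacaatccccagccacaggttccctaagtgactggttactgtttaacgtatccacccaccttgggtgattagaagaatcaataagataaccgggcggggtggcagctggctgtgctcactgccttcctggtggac
Hnf4a downstream start: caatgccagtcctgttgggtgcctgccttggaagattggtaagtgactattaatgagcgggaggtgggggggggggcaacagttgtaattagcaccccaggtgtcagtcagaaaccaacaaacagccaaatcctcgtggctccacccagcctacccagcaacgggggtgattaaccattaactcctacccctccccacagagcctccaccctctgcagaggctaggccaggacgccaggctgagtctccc
Pax2 and Pax8 are shown as the genes with higher levels in KI kidneys. The Pax2 window is chr19:44755502-44755751 on the plus strand, and no Pax2 transcript of the annotation used for the counts begins within 100 bases of its RefSeq start. The Pax8 window is chr2:24475600-24475849 on the minus strand, at the start of Pax8-201.
Pax2: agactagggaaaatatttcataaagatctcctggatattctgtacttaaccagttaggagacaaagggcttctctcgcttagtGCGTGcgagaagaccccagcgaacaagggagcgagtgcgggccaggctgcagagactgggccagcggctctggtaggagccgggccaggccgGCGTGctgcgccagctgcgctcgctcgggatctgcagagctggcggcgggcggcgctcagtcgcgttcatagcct
Pax8: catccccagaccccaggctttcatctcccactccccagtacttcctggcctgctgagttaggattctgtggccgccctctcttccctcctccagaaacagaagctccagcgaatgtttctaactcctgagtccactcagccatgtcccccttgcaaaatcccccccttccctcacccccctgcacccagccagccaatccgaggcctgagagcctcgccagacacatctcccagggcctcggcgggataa
Tfap2b is shown as the gene that differed between knockout and KI kidneys in the most comparisons, with the window chr1:19211804-19212053 on the plus strand. This window precedes Tfap2b-202, which held 6.94% to 22.9% of Tfap2b TPM (transcript abundance scaled to a fixed library total) per library, while Tfap2b-201, which held 59.3% to 85.6%, begins further upstream.
Tfap2b: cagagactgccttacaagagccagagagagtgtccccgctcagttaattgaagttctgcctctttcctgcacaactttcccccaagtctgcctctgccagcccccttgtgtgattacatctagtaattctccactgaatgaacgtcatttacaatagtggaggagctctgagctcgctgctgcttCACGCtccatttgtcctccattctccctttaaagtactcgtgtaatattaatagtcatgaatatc
The M-box was found in 1.88% of 32851 RefSeq windows of this length and the HIF core in 38.6%. Among the 11 windows of the 7 genes, the HIF core was found in the single Tfap2b window and in all 3 Pax2 windows, and in none of those of Hnf4a, Pax8, Lhx1, Tfap2a or Gata3. These are matches of letters in a short window and no measure of binding.

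Library totals ranged from 16504419 to 24668827 expected counts, with a median of 18635282. Levels are given as CPM (counts scaled to a fixed library total) on TMM-scaled library sizes when libraries are compared and as TPM, which corrects for transcript length, when genes are compared. The expected tissue was present: the summed level of 10 proximal tubule markers was 17030 to 26580 TPM in Cre(-) kidneys, and of 6 thick ascending limb markers 2528 to 3373 TPM. In KI kidneys these sums were 422.6 to 487 TPM and 504.1 to 900 TPM. Most of the proximal tubule sum in Cre(-) kidneys came from 1 gene, Kap, at 12710 to 22270 TPM, against 37.61 to 61.8 TPM in KI kidneys. Cdh16, the gene whose promoter drives Cre, was at 432 to 583 TPM in KI kidneys and 642 to 710 TPM in Cre(-) kidneys. Gpnmb, a known TFE3 target, was at 0.326 to 1.47 TPM in Cre(-) kidneys and at or above 2290 TPM in every library with Cre. Gene totals gave no clear check of the flox labels, since transcripts that lost the floxed part may still be counted, and exons were not examined. Hif1a was at 51.3 to 67.5 TPM in Hif1a KO and 58.5 to 81.1 TPM in KI kidneys. Epas1, the HIF2a gene, was at 40.4 to 44.0 TPM in Hif2a KO and 46.7 to 55.1 TPM in KI kidneys, without overlap. In DKO kidneys Epas1 was at 45.9 to 47.5 TPM and overlapped with KI. KI replicate 2 stood apart with 3017 TPM of summed adipocyte markers, against 71.39 and 200.5 TPM in the other KI kidneys.

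All 8 factors differed between KI and Cre(-) kidneys, 6 lower and 2 higher, with no overlap of CPM between the groups (edgeR quasi-likelihood test, Benjamini-Hochberg adjusted p under 0.05). In this contrast 60.9% of all genes tested were called, 31.6% higher and 29.3% lower, and 56.6% did not overlap. The median log2 fold change of the 8 factors was -1.01, and that of all genes was 0.03. The changes did not follow one direction: the proximal tubule, distal and collecting duct factors and Lhx1 were lower, and both PAX factors were higher.

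**Figure D1:**
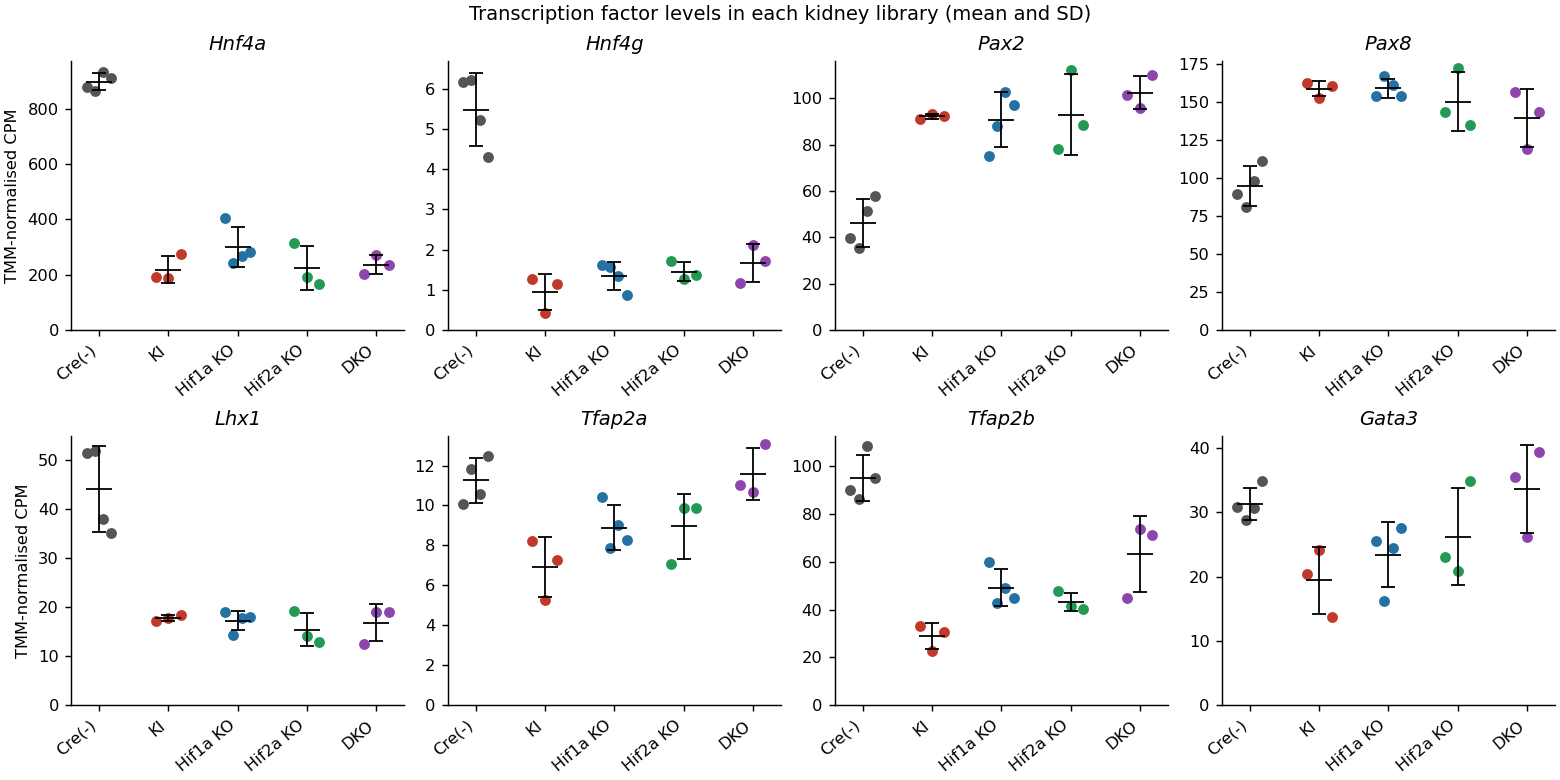
Level of each factor in every library, as TMM-normalised CPM on a linear axis that starts at 0, by genotype group, with 1 point per mouse and black bars for mean and SD. Hnf4a falls from 866 to 933 CPM in Cre(-) kidneys to 404 CPM or less in all others, Pax2 and Pax8 are higher in every Cre-carrying library, and Tfap2a, Tfap2b and Gata3 are lowest on average in KI kidneys.

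Hnf4a (chr2:163506808-163572910, plus strand) was the most abundant of the 8 factors in Cre(-) kidneys. It measured 880, 866, 933 and 912 CPM in the 4 Cre(-) mice and 192, 189 and 274 CPM in the 3 KI mice. The highest KI kidney thus reached less than the lowest Cre(-) kidney by a wide margin, and the log2 fold change was -2.04 (SE 0.22, edgeR adjusted p = 1.39e-06), a 4.11-fold lower level. Hif1a KO kidneys had 404, 243, 268 and 283 CPM, Hif2a KO kidneys 315, 192 and 167 CPM, and DKO kidneys 204, 271 and 235 CPM. Every Cre-carrying library stayed below Cre(-), and no knockout group differed from KI in the edgeR test (adjusted p = 0.218, 0.941 and 0.773 for Hif1a KO, Hif2a KO and DKO). The interval of 2 SE around the log2 difference from KI ran from 0.03 to 0.88 for Hif1a KO, from -0.41 to 0.49 for Hif2a KO and from -0.33 to 0.57 for DKO.

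Nearly all Hnf4a RNA was assigned to the downstream start in every library. The transcripts Hnf4a-201 and Hnf4a-202, which begin within 100 bases of the downstream window printed above, together held 98.4% to 100% of the TPM of the gene. The split between these 2 was not stable within a group, with Hnf4a-202 at 42.7%, 42.2%, 59.9% and 92.7% in the 4 Cre(-) kidneys, so their shares were not compared further. The lower level in KI kidneys therefore concerned transcripts from the same start, and no shift to the upstream start was measured.

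Hnf4g (chr3:3508030-3658052, plus strand), the paralog of Hnf4a, was the least abundant of the 8. It measured 6.17, 6.21, 5.23 and 4.29 CPM in Cre(-) kidneys and 1.26, 0.431 and 1.14 CPM in KI kidneys. These KI levels rest on 22, 8 and 20 counts, above the limit of 3 counts taken as the smallest detectable amount. Its log2 fold change of -2.53 (SE 0.34, edgeR adjusted p = 1.125e-05) was a 5.78-fold lower level. Knockout kidneys had 0.859 to 2.11 CPM, all below the lowest Cre(-) kidney, and no difference from KI passed the test, with log2 differences of 0.50, 0.62 and 0.81 (SE 0.34, 0.36 and 0.36; adjusted p = 0.422, 0.352 and 0.141) in Hif1a KO, Hif2a KO and DKO kidneys. Both HNF4 genes thus were lower in the same KI libraries, and on the TPM scale Hnf4a exceeded Hnf4g 72.4- to 108-fold in Cre(-) and 76.2- to 221-fold in KI kidneys.

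Pax2 (chr19:44756045-44837871, plus strand) was higher in every Cre-carrying kidney. It measured 39.6, 35.4, 51.5 and 58.0 CPM in Cre(-) kidneys and 91.0, 93.2 and 92.4 CPM in KI kidneys. The 3 KI values lay closer together than those of Cre(-) mice, and the log2 fold change was 1.00 (SE 0.16, edgeR adjusted p = 4.954e-05). Knockout kidneys had 75.2 to 112 CPM and did not differ from KI in the test (adjusted p = 0.949, 0.980 and 0.588). The log2 differences from KI were -0.02, 0.01 and 0.15 (SE 0.16, 0.17 and 0.17) in Hif1a KO, Hif2a KO and DKO kidneys, and all 3 DKO kidneys were above all KI kidneys by a small margin. Pax2-201 held most of the Pax2 TPM in both groups, 57.8% to 66.5% in Cre(-) and 62.1% to 66.8% in KI kidneys.

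Pax8 (chr2:24420560-24475599, minus strand) was higher in the same libraries. It measured 89.2, 80.6, 97.97 and 111 CPM in Cre(-) kidneys and 162, 153 and 161 CPM in KI kidneys. Its log2 fold change was 0.74 (SE 0.11, edgeR adjusted p = 3.654e-05), a 1.68-fold higher level with no overlap. Hif1a KO kidneys had 154, 167, 161 and 154 CPM, Hif2a KO kidneys 144, 172 and 135 CPM, and DKO kidneys 156, 119 and 144 CPM. The DKO group was the lowest of the 4 Cre-carrying groups on average, but its log2 difference from KI of -0.19 (SE 0.12, adjusted p = 0.334) did not pass the test, and DKO replicate 2, the lowest, was still above the highest Cre(-) kidney.

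Lhx1 (chr11:84518284-84525535, minus strand) moved against the PAX genes. It measured 51.4, 51.7, 37.9 and 35.2 CPM in Cre(-) kidneys and 17.2, 17.7 and 18.3 CPM in KI kidneys. The KI kidneys were alike and below every Cre(-) kidney, with a log2 fold change of -1.31 (SE 0.18, edgeR adjusted p = 1.566e-05). Knockout kidneys had 12.5 to 19.2 CPM, and the log2 differences from KI of -0.04, -0.20 and -0.08 (SE 0.18, 0.19 and 0.19) did not pass the test (adjusted p = 0.921, 0.599 and 0.831). With Pax2 up and Lhx1 down, the TPM of Pax2 relative to Lhx1 was 0.647 to 1.45 in Cre(-) kidneys and 4.69 to 5.87 in KI kidneys.

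The order of the factors by TPM changed with the KI genotype. In Cre(-) kidneys Hnf4a (232 TPM) led before Pax8 (44.4 TPM), Tfap2b (21.7 TPM), Lhx1 (18.01 TPM), Pax2 (16.9 TPM), Gata3 (14.9 TPM), Tfap2a (4.82 TPM) and Hnf4g (2.76 TPM), of which Tfap2b, Lhx1, Pax2 and Gata3 overlapped with their neighbours in this order and the others did not. In KI kidneys Pax8 (102 TPM) led before Hnf4a (76.8 TPM), Pax2 (47.4 TPM), Gata3 (13.2 TPM), Tfap2b (9.42 TPM), Lhx1 (9.12 TPM), Tfap2a (4.10 TPM) and Hnf4g (0.651 TPM), where the ranges of Gata3, Tfap2b and Lhx1 overlapped and the others were apart. Pax8 TPM divided by Hnf4a TPM was 0.172 to 0.223 in Cre(-) kidneys and 1.04 to 1.54 in KI kidneys. It was 0.688 to 1.24 in Hif1a KO, 0.805 to 1.62 in Hif2a KO and 0.791 to 1.37 in DKO kidneys, so that the lead of Pax8 over Hnf4a was not shared by every knockout library.

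**Figure D2:**
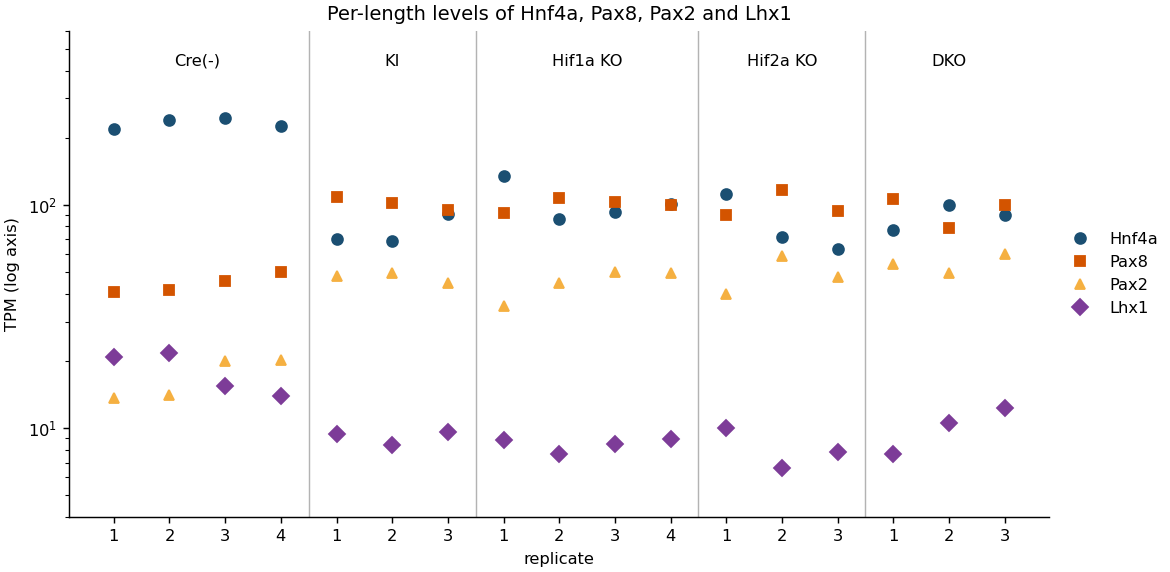
TPM of Hnf4a, Pax8, Pax2 and Lhx1 (log axis) in each library, with replicates on the x axis grouped by genotype. Hnf4a lies about an order of magnitude above Pax2 and Lhx1 in Cre(-) kidneys, and in the 3 KI kidneys Pax8 is above Hnf4a while Pax2 and Lhx1 are spread apart.

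Tfap2b (chr1:19208914-19238576, plus strand), a factor of the distal nephron, was lower in KI kidneys and intermediate in the knockouts. It measured 90.1, 86.2, 108 and 95.1 CPM in Cre(-) kidneys and 33.3, 22.8 and 30.6 CPM in KI kidneys. This gave a log2 fold change of -1.72 (SE 0.18, edgeR adjusted p = 7.147e-07), a 3.28-fold lower level. Hif1a KO kidneys had 60.04, 42.9, 49.2 and 44.6 CPM, Hif2a KO kidneys 47.6, 41.6 and 40.4 CPM, and DKO kidneys 45.0, 73.7 and 71.1 CPM. In CPM all 10 knockout kidneys were above all 3 KI kidneys and below all 4 Cre(-) kidneys, while the ranges of the 3 knockout groups overlapped with one another. In TPM, DKO and Cre(-) kidneys overlapped, at 15.8 to 24.45 TPM and 19.01 to 26.29 TPM. Its log2 difference from KI was 0.77 in Hif1a KO (SE 0.17, adjusted p = 0.02149), 0.58 in Hif2a KO (SE 0.18, adjusted p = 0.1052) and 1.13 in DKO kidneys (SE 0.18, adjusted p = 0.002544). By edgeR, Tfap2b was thus called higher in Hif1a KO and DKO but not in Hif2a KO kidneys. Hif1a KO and Hif2a KO kidneys differed from each other by 0.19 (SE 0.17, edgeR adjusted p = 0.646), not called.

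Tfap2a (chr13:40715302-40738376, minus strand), the other AP-2 gene, was measured at lower levels. Cre(-) kidneys had 10.1, 11.8, 10.6 and 12.5 CPM, and the KI kidneys 8.22, 5.28 and 7.25 CPM. This gave a log2 fold change of -0.70 (SE 0.17, edgeR adjusted p = 0.001797). DKO kidneys had 11.0, 10.7 and 13.1 CPM, all above KI and within or just above the Cre(-) range, and the log2 difference from KI was 0.75 (SE 0.18, adjusted p = 0.01409). Hif1a KO kidneys had 7.89 to 10.4 CPM and Hif2a KO kidneys 7.08 to 9.89 CPM, both overlapping with KI, with log2 differences of 0.36 and 0.37 (SE 0.17 and 0.18) that did not pass the test (adjusted p = 0.213 and 0.263).

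Gata3 (chr2:9857078-9890034, minus strand) measured 30.8, 28.8, 30.6 and 34.8 CPM in Cre(-) kidneys and 20.5, 24.1 and 13.8 CPM in KI kidneys. This gave a log2 fold change of -0.69 (SE 0.22, edgeR adjusted p = 0.01505), and KI replicate 3 was the lowest library. Without KI replicate 3 the change was -0.49 and did not pass (adjusted p = 0.08383). Hif1a KO kidneys had 16.2 to 27.5 CPM and Hif2a KO kidneys 20.8 to 34.8 CPM, neither called against KI (adjusted p = 0.525 and 0.338). DKO kidneys had 35.4, 26.1 and 39.4 CPM, all above KI, with a log2 difference of 0.79 (SE 0.24, adjusted p = 0.03904). One exon of the gene 9230102O04Rik overlaps Gata3 on the same strand, and that gene was at 6.81 TPM in Cre(-) and 2.96 TPM in KI kidneys, so reads of the shared part may be split between them.

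Gata3 is also made by T cells and urothelium, and RNA of both differed between the groups. The summed T cell markers were at 8.67 to 13.3 TPM in Cre(-), 10.7 to 43.7 TPM in KI and 48.0 to 83.4 TPM in DKO kidneys. They were at 25.8 to 61.3 TPM in Hif1a KO and 34.8 to 104.4 TPM in Hif2a KO kidneys. The summed urothelial markers were at 12.3 to 21.1 TPM in Cre(-), 24.3 to 199 TPM in KI and 50.7 to 210 TPM in DKO kidneys. They were at 38.6 to 153 TPM in Hif1a KO and 96.6 to 301.8 TPM in Hif2a KO kidneys. KI replicate 3, the lowest for Gata3, was also the lowest KI kidney for both sums, at 10.69 and 24.33 TPM. Other libraries differed: Hif2a KO replicate 1 had the highest T cell sum, 104.4 TPM, with Gata3 at 23.0 CPM. DKO replicate 2 had the highest T cell sum of its group, 83.4 TPM, and its lowest Gata3. Summed principal cell markers were at 298 to 361 TPM in KI and 391 to 558 TPM in DKO kidneys, and Hif2a KO replicate 3, the highest of its group for Gata3, had 694.4 TPM. This kidney also had the highest urothelial sum of all libraries, 301.8 TPM. The part of these cells in the Gata3 values was not tested.

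**Figure D3:**
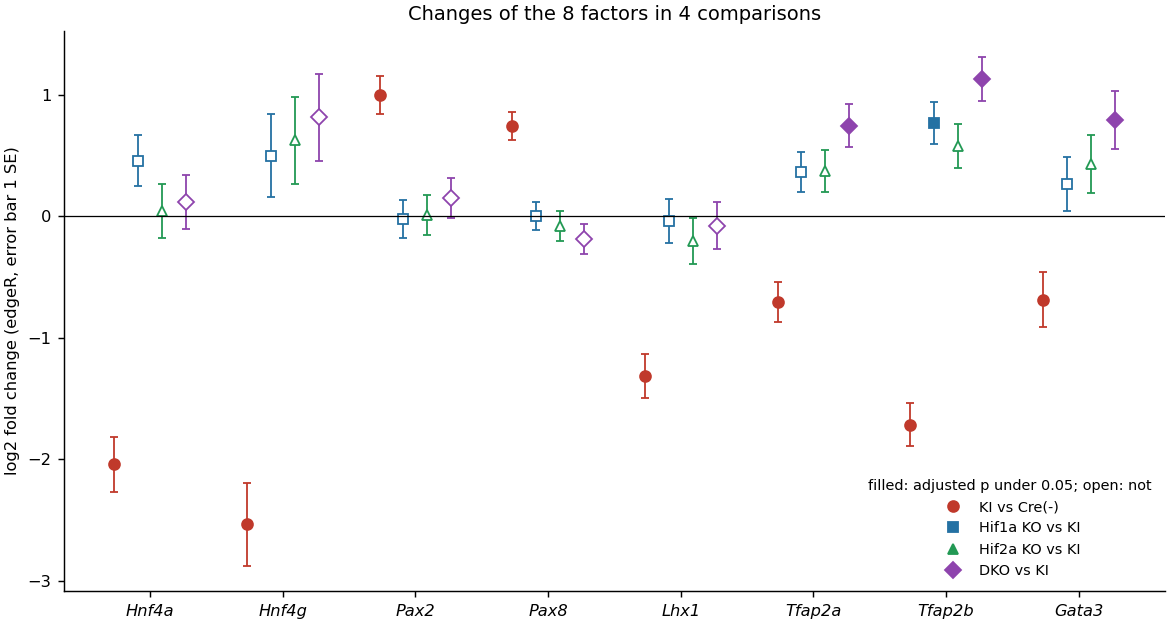
edgeR log2 fold change of each factor, with an error bar of 1 SE, in KI against Cre(-) and in each knockout group against KI, with filled symbols for an adjusted p under 0.05. The red circles show 6 factors below 0 and 2 above, and the filled blue and purple symbols are Tfap2b in Hif1a KO, and Tfap2a, Tfap2b and Gata3 in DKO.

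Compared with KI, 1 of the 8 factors was called in Hif1a KO kidneys (Tfap2b, higher), where 5.44% of all genes were called, 2.57% higher and 2.86% lower. Hnf4a, Tfap2a and Tfap2b, 3 factors, had an unadjusted p under 0.05, as had 3756 of the 17011 genes. The groups did not overlap for Tfap2b, as for 19.3% of all genes. In Hif2a KO kidneys edgeR called 0 of the factors and 1.39% of all genes (0.741% higher and 0.647% lower). Tfap2b was the 1 factor with an unadjusted p under 0.05, which 3262 of the 17011 genes had, and DESeq2 called Tfap2b (adjusted p = 0.04227). Hnf4g and Tfap2b did not overlap with KI, as 20.2% of all genes did not. In DKO kidneys 3 were called, all higher (Tfap2a, Tfap2b and Gata3), where 12.7% of all genes were called, 6.53% higher and 6.19% lower. Together with Pax2, 4 factors did not overlap with KI, which was so for 33.7% of all genes. With Hnf4g, 4 factors had an unadjusted p under 0.05 in DKO kidneys, as had 4951 of the 17011 genes. These 3 comparisons share the KI kidneys as reference, so a high or low KI library enters each of them. The 5 remaining factors, Hnf4a, Hnf4g, Pax2, Pax8 and Lhx1, were not called against KI in any knockout group.

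Of the 4 calls against KI, 3 were lost when some libraries were left out. The Hif1a KO call of Tfap2b was lost without KI replicate 2, which holds the adipocyte RNA (log2 difference 0.62, adjusted p = 0.08779), without Hif1a KO replicate 1 (0.66, adjusted p = 0.05824) or without replicate 3 (0.76, adjusted p = 0.0518, a difference as large as with it). In DKO kidneys the Tfap2a call was lost without KI replicate 2 (0.58, adjusted p = 0.05175) or DKO replicate 3 (0.65, adjusted p = 0.06503). The Gata3 call was lost without KI replicate 1 or 3 or DKO replicate 1 or 3, with log2 differences of 0.83, 0.60, 0.75 and 0.66 (adjusted p = 0.0617, 0.1574, 0.08068 and 0.1469), and the Tfap2b call was kept in every such fit (log2 difference 0.98 to 1.32).

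Hif1a KO and Hif2a KO kidneys were also compared directly. By edgeR 0 of the 8 factors were called and 0 had an unadjusted p under 0.05, and by DESeq2 0 were called; edgeR called 0.429% of all genes, 0.329% higher and 0.0999% lower. The groups overlapped for all 8 factors, and 15.1% of all genes did not overlap. The widest difference was that of Hnf4a, 0.41 on the log2 scale (SE 0.21, adjusted p = 0.3737) with an interval of 2 SE from -0.01 to 0.84. The intervals reached from -0.15 to 0.52 for Tfap2b, from -0.33 to 0.32 for Tfap2a and from -0.60 to 0.28 for Gata3, and differences of that size were within the error with 4 and 3 mice.

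Against Cre(-) kidneys, 6 of the 8 factors were called in each of the 3 knockout groups, where 61.9%, 61.9% and 58.3% of all genes were called in Hif1a KO, Hif2a KO and DKO kidneys. In each group Hnf4a, Hnf4g, Lhx1 and Tfap2b were lower and Pax2 and Pax8 higher, where 31.9%, 32.0% and 30.4% of all genes were higher and 30.1%, 29.9% and 27.9% lower. Of the 8 factors, 7, 7 and 6 did not overlap with Cre(-), against 56.1%, 59.7% and 59.3% of all genes. Hnf4a differed from Cre(-) by -1.582, -1.997 and -1.922 on the log2 scale and Pax2 by 0.98, 1.01 and 1.15. Tfap2b differed by -0.95, -1.13 and -0.58, still lower in DKO kidneys (SE 0.17, edgeR adjusted p = 0.0074). On the log2(TPM + 1) scale this DKO difference was -0.05, or -0.51 relative to the median of all genes. Tfap2a and Gata3 were not called against Cre(-) in any knockout group, and in DKO kidneys their log2 differences were 0.04 (SE 0.16, adjusted p = 0.8353) and 0.11 (SE 0.22, adjusted p = 0.6968). They were -0.34 and -0.42 in Hif1a KO (edgeR adjusted p = 0.06054 and 0.08739) and -0.33 and -0.26 in Hif2a KO kidneys (0.08957 and 0.3254). Without Hif1a KO replicate 1, Tfap2a was called lower in Hif1a KO kidneys (-0.42, adjusted p = 0.03293). The 3 comparisons share the same Cre(-) mice.

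The Cre(-) mice themselves were not uniform for the kidney lineage factors. Lhx1 was at 51.4 and 51.7 CPM in the 2 mice with HIF1a f/f and at 37.9 and 35.2 CPM in those with no flox allele, and Pax2 was at 39.6 and 35.4 CPM against 51.5 and 58.0 CPM. Of the 8 factors, 6 had no overlap between these pairs, as had 43.9% of all genes, and these differences were not tested. With either pair alone as reference, 8 factors were called in KI kidneys with replicates 3 and 4, and 7 with replicates 1 and 2, where Gata3 was lost (adjusted p = 0.08083).

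The scale mattered for the smaller changes. TPM, which are shares of all RNA, raised the median of all genes in KI against Cre(-) by 0.38 on the log2(TPM + 1) scale, and 78.2% of the calls were then higher, against 51.9% on CPM. On that scale Tfap2a changed by -0.20 and Gata3 by -0.22 (limma adjusted p = 0.2922 and 0.4348), no longer called, and relative to the shifted median by -0.58 and -0.60. In TPM both overlapped between the groups. Tfap2a was at 3.17 to 5.025 TPM in KI and 4.05 to 5.42 TPM in Cre(-) kidneys, and Gata3 at 8.02 to 16.3 TPM and 14.5 to 15.9 TPM. The other 6 factors kept their direction and call, with Hnf4a at -1.59 (-1.97 relative to the median) and Pax2 at 1.45 (1.07 relative to the median).

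**Figure D4:**
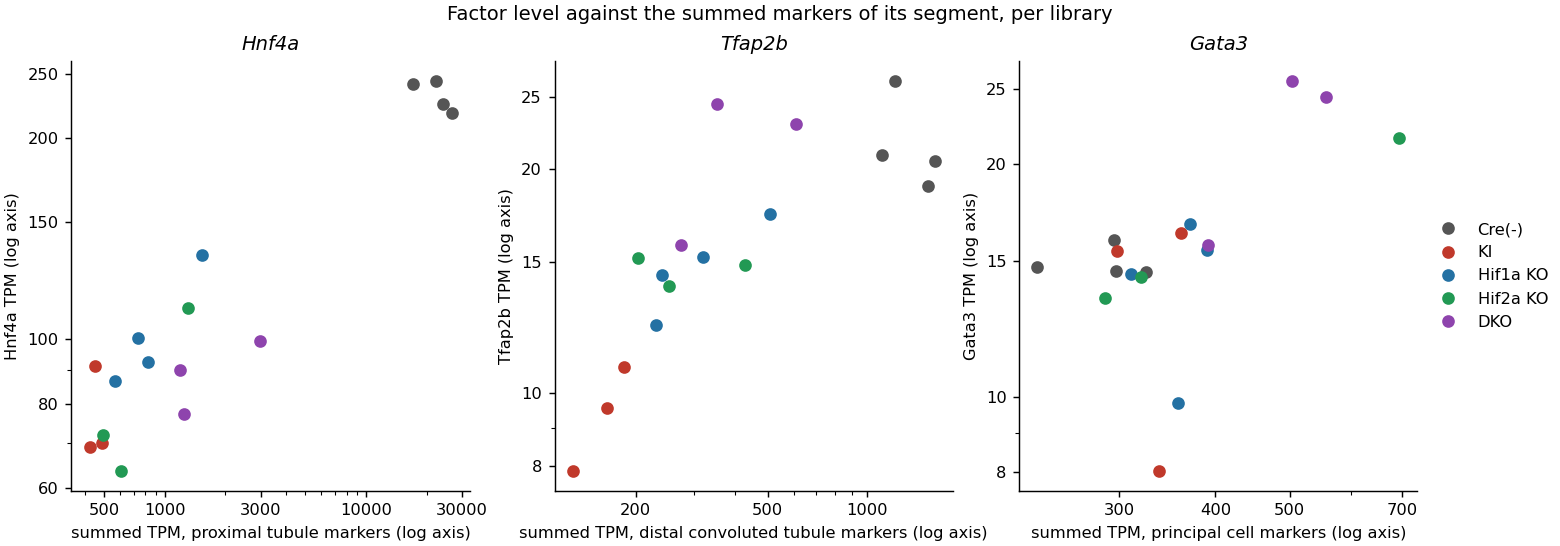
TPM of Hnf4a, Tfap2b and Gata3 against the summed TPM of the markers of proximal tubule, distal convoluted tubule and principal cells (both axes log), with 1 point per library coloured by genotype. KI libraries have the lowest marker sums in the first 2 pairs and the lowest Tfap2b, but overlap with knockout libraries in Hnf4a, while for Gata3 the 3 libraries above 20 TPM, 2 DKO and 1 Hif2a KO, have the 3 highest principal cell sums. The proximal tubule sum includes Kap, at 12710 to 22270 TPM in Cre(-) libraries.

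Genes of the same segments were examined in lists that give each factor its setting. Of 18 genes known to depend on HNF4 in proximal tubule, all tested, 16 fell and 0 rose in KI against Cre(-) kidneys (median log2 fold change -3.54, 0.03 over all genes). Over all genes 29.3% were lower and 31.6% higher in this contrast. Slc22a8, an organic anion transporter, fell by 5.93 on the log2 scale (SE 0.78, edgeR adjusted p = 8.231e-06), from 265 to 6.02 TPM, and Pck1, the gluconeogenic enzyme, fell by 5.44 (SE 0.75, adjusted p = 1.434e-05), from 1373 to 42.8 TPM. Against KI, 6 rose and 0 fell in Hif1a KO kidneys (median 0.98), 0 rose and 1 fell in Hif2a KO kidneys (Ttr, median 0.21), and 5 rose and 1 fell (Ttr) in DKO kidneys (median 0.60), against a median of all genes within 0.01 of 0 in each. Of all genes, 2.57%, 0.741% and 6.53% rose and 2.86%, 0.647% and 6.19% fell in these 3 contrasts. Slc22a8 rose in Hif1a KO (2.46, adjusted p = 0.0425) and DKO kidneys (2.79, adjusted p = 0.01823), and Pck1 in Hif1a KO kidneys (2.84, adjusted p = 0.0239), although Hnf4a was not called in either group. In Hif2a KO kidneys Slc22a8 differed by 2.22 and Pck1 by 0.75, not called by edgeR (adjusted p = 0.0999 and 0.5551). An unadjusted p under 0.05 was found for 10, 7 and 9 of the 18 genes in Hif1a KO, Hif2a KO and DKO against KI. In Hif1a KO against Hif2a KO directly, edgeR called 0 of the 18 (median 0.60), with 4 at an unadjusted p under 0.05. Summed proximal tubule markers were at 566.5 to 1539 TPM in Hif1a KO, 495.2 to 1303 TPM in Hif2a KO and 1193 to 2972 TPM in DKO kidneys, and in each of these 3 groups the kidney highest for Hnf4a was also highest for this sum. In KI kidneys replicate 3 was highest for Hnf4a and replicate 1 for the sum, and in Cre(-) kidneys replicate 3 was highest for Hnf4a and replicate 1 for the sum. Much of this sum was the marker Kap, at 12710 to 22270 TPM in Cre(-) and 334.6 to 2031 TPM in DKO kidneys. It was at 58.83 to 480 TPM in Hif1a KO and 52.9 to 415.3 TPM in Hif2a KO kidneys. The lead of DKO kidneys among the knockouts in this sum rests in large part on Kap, at 2031 of 2972 TPM in DKO replicate 2.

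For Tfap2b, 14 genes of the distal convoluted tubule and its neighbouring thick limb were listed, of which 13 fell and 0 rose in KI kidneys (median log2 fold change -2.40), where 29.3% of all genes were lower and 31.6% higher. Slc12a3, the thiazide-sensitive cotransporter, fell by 3.76 (SE 0.46, edgeR adjusted p = 3.705e-06) from 1160 to 110 TPM, and Slc12a1, the loop cotransporter, by 3.60 (SE 0.40, adjusted p = 1.436e-06) from 496 to 56.7 TPM. Against KI, 6 rose in Hif1a KO (median 0.94), 1 in Hif2a KO (Umod, median 0.51) and 6 in DKO kidneys (median 0.74), with 0 lower in each. Over all genes, 2.57%, 0.741% and 6.53% were higher in these 3 groups. Slc12a1 rose in Hif1a KO (1.65, adjusted p = 0.0195) and DKO kidneys (1.68, adjusted p = 0.01192) and Slc12a3 in DKO kidneys (1.505, adjusted p = 0.03238). Not called by edgeR were Slc12a1 in Hif2a KO (1.25, adjusted p = 0.0955) and Slc12a3 in Hif1a KO and Hif2a KO kidneys (1.16 and 0.96, adjusted p = 0.1066 and 0.2313). An unadjusted p under 0.05 was found for 11, 7 and 8 of the 14 genes in Hif1a KO, Hif2a KO and DKO against KI. In Hif1a KO against Hif2a KO directly, edgeR called 0 of the 14 (median 0.26), with 2 at an unadjusted p under 0.05. Summed distal convoluted tubule markers were at 129 to 185 TPM in KI, 231 to 510 TPM in Hif1a KO, 204 to 427 TPM in Hif2a KO and 274 to 609 TPM in DKO kidneys, against 1103 to 1594 TPM in Cre(-) kidneys.

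Among 10 genes of collecting duct principal cells listed with Gata3, 7 fell and 2 rose in KI kidneys (median log2 fold change -1.52), where 29.3% of all genes were lower and 31.6% higher. Hsd11b2, which protects the mineralocorticoid receptor, fell by 2.34 (SE 0.36, edgeR adjusted p = 3.954e-05), and Fxyd4, a regulator of the sodium pump, by 1.98 (SE 0.43, adjusted p = 0.0009667). Aqp3, the basolateral water channel, rose by 1.28 (SE 0.17, adjusted p = 1.21e-05) and St6gal1 by 1.28 (SE 0.07, adjusted p = 1.724e-09). Against KI, 0 of these 10 were called by edgeR in Hif1a KO and in Hif2a KO kidneys (4 and 6 at an unadjusted p under 0.05), and 3 rose in DKO kidneys, the vasopressin receptor gene Avpr2, the water channel Aqp2 and the sodium channel subunit Scnn1g, with a list median of 1.06. Of all genes, 5.44% and 1.39% were called in Hif1a KO and Hif2a KO kidneys, and 6.53% rose in DKO kidneys.

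**Figure D5:**
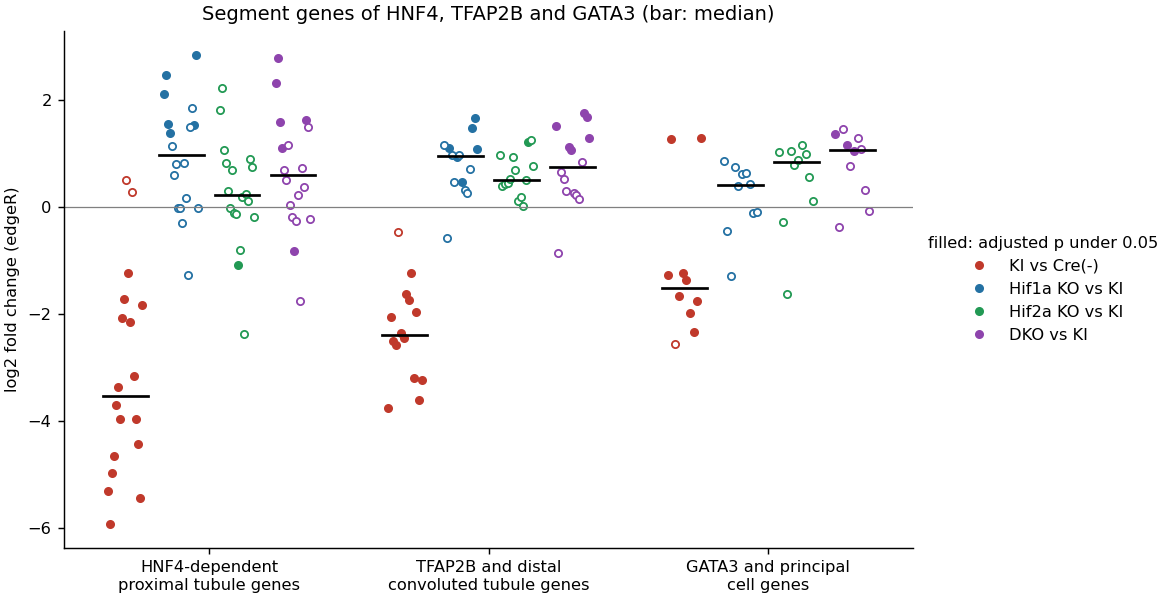
edgeR log2 fold change of each listed gene of HNF4, TFAP2B and GATA3 segments in 4 comparisons, with filled points for an adjusted p under 0.05 and a black bar at the list median. The medians lie at -3.54, -2.40 and -1.52 in KI against Cre(-), and between 0.21 and 1.06 in the knockout groups against KI.

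Other factors of the same segments were counted in KI against Cre(-) kidneys, where 31.6% of all genes were higher and 29.3% lower. Of 14 further proximal tubule factors, 8 fell and 2 rose, with Ppara at -1.89 and Klf15 at -1.65 (edgeR adjusted p = 2.458e-05 and 0.0002375) and with Cebpb at 1.21 (adjusted p = 6.342e-05). Of 13 loop and distal factors tested, 8 fell and 2 rose: the nuclear receptor gene Esrrb fell by 4.26 and the homeobox gene Emx1 fell by 2.765 (adjusted p = 1.563e-07 and 5.169e-06), and Irx2 rose by 1.52 and Irx1 by 0.96 (adjusted p = 2.047e-08 and 1.349e-05). Esrrb rose against KI in Hif1a KO (1.96, adjusted p = 0.009685) and DKO kidneys (1.38, adjusted p = 0.02748). Of 16 collecting duct and urothelial factors, 7 fell, Hmx2 and Elf5 the most (-2.79 and -2.19), and 6 rose, with Sox9, a factor of progenitors and injured tubule, at 4.47 (SE 0.35, adjusted p = 4.259e-08) and Foxa1 at 2.24 (SE 0.65, adjusted p = 0.007123).

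Genes of kidney development that surround PAX2, PAX8 and LHX1 were mixed in direction. Of 13 kidney progenitor factors tested, 5 rose and 1 fell in KI kidneys, where 60.9% of all genes were called, with Eya1 at 3.46 and Hoxa11 at 2.09 (edgeR adjusted p = 1.266e-05 and 2.725e-07) and with Wt1, which adult kidney keeps in podocytes, at -1.80 (adjusted p = 5.284e-05). Six2, which defines nephron progenitors, did not pass the filter. Of 20 nephric duct and induction genes tested, 8 rose and 7 fell: Ret, the receptor of the duct, went from 0.239 to 13.5 TPM (log2 fold change 5.33, SE 0.29, adjusted p = 1.537e-09) and Wnt4, the inducer of tubule formation, from 1.47 to 27.9 TPM (3.78, SE 0.22, adjusted p = 2.399e-09), while Gfra1, the coreceptor of Ret, fell by 1.78 and Wnt9b by 1.19 (adjusted p = 0.000543 and 0.01847). In DKO against KI kidneys Sox9, Wnt4 and Hoxa11 fell by 1.13, 0.77 and 0.78 (adjusted p = 0.02902, 0.02516 and 0.0219), and Hoxa11 also fell in Hif1a KO against KI kidneys, by 0.93 (adjusted p = 0.0144). Sox9 and Wnt4 were at -0.82 and -0.63 in Hif1a KO kidneys, not called (edgeR adjusted p = 0.1071 and 0.06326). In Hif2a KO kidneys Sox9, Wnt4 and Hoxa11 were at -0.38, -0.54 and -0.72, also not called (adjusted p = 0.5272, 0.1697 and 0.07699).

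Of 18 other PAX, LIM homeodomain, AP-2 and GATA genes, 7 passed the filter, 4 rose and 1 fell in KI kidneys, where 31.6% of all genes were higher and 29.3% lower. Pax9 rose by 2.29 (SE 0.57, edgeR adjusted p = 0.002792) from 0.277 to 1.83 TPM. Pax5, a factor of B cells, rose by 4.56 (SE 1.20, adjusted p = 0.003878), and its TPM was 0.333, 3.41 and 0.322 in the 3 KI kidneys, so that the value rests on replicate 2, which also had the highest B cell markers of its group. Tfap2c and Tfap2e, the closest paralogs of Tfap2a and Tfap2b, did not pass the filter.

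Against KI, the proximal tubule, loop and distal, collecting duct, progenitor, induction and family lists had 1, 3, 2, 0, 2 and 0 higher and 0, 0, 0, 2, 1 and 0 lower genes in Hif1a KO kidneys, where 2.57% of all genes were higher and 2.86% lower. By edgeR, Hif2a KO kidneys had 0 higher genes in all 6 and 1 lower, Etv5, in the induction list, where 0.741% of all genes were higher and 0.647% lower, with 2, 5, 3, 3, 6 and 0 genes at an unadjusted p under 0.05 in the same order. DKO kidneys had 0, 4, 2, 1, 3 and 0 higher and 0, 0, 1, 3, 2 and 1 lower genes, where 6.53% and 6.19% of all genes were called in these directions.

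The genes most like each factor over the 13 Cre-carrying libraries were named by Pearson's r of log2 CPM, as a description, since these libraries share 4 groups and their normalization. Hnf4a was followed most closely by Cbr1 (r = 0.977) and Zfp706 (0.945). Tfap2b was followed by Igfbp7 (0.969), Sgpp2 (0.965) and Ninl (0.963), and Tfap2a by Gm7694 (0.962), Bmp7 (0.946) and Tmem150c (0.945). For Gata3 the genes were Slc26a2 (0.962), Robo1 (0.955) and Tmem45b (0.954). The PAX genes had lower values, with Svil, Prrc2a and Kdm6b at 0.866 to 0.900 for Pax2 and Ddx54, Gm5641 and Arpc3 at 0.868 to 0.895 for Pax8. Lhx1 was followed by Prps1l3, Thap2 and Zscan26 (0.894 to 0.907) and Hnf4g by Matn4, Erbb2 and Tmem139 (0.919 to 0.932). Among the 8 factors themselves the highest values over these libraries were those of Tfap2a with Tfap2b (0.81) and Tfap2b with Hnf4g (0.807), and the lowest was that of Hnf4a with Pax2 (-0.511).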

How the data were processed

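Kidney mRNA of 17 mice was sequenced as stranded single-end libraries with reads of 75 nt. The submitters' processing notes name Trim Galore 0.6.6, cutadapt 2.5 and STAR 2.7.9a with the builds hg38 and GRCm38, and the methods name RSEM. The authors deposited, per transcript, expected counts, which are not normalized, and TPM, normalized for length and library total. Of 119353 transcripts, 116770 were matched without version to GENCODE M21 (GRCm38) and summed to genes, and counts were rounded.

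The test was edgeR 4.0.16 (R 4.3.3; quasi-likelihood, TMM, filterByExpr with minimum count 10, all libraries in 1 fit, Benjamini-Hochberg over 17011 genes, threshold 0.05), checked on simulated data. Alternatives used DESeq2 1.42.0 and limma 3.58.1. Nothing in the labels says more of the replicates than that they are separate samples, so p-values measure the spread between these kidneys. Library order largely followed the groups, and order and group cannot be told apart. No set test was run.

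The members and lists were chosen with earlier results of these data known. Named list genes are up to 2 per direction per list with the largest log2 fold change among those past the threshold in KI against Cre(-) with a mean of at least 1 TPM in either group; Ttr, Umod, Avpr2, Aqp2, Scnn1g, Etv5, Six2, Tfap2c and Tfap2e were named after their values were seen. The 3 genes with the highest r were taken for each factor. Items that these rules name and that are withheld are not reported here.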

Additional observations from a re-analysis of the deposited data

How the results depend on the processing

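The counts of factors called stayed within 1.5 times under the other settings, except that a fit of only the 2 groups compared gave 0 in Hif1a KO and 1 in DKO against KI, that DESeq2 gave 1 in Hif2a KO against KI, and that leaving out 1 replicate gave 0 to 1 in Hif1a KO and 1 to 3 in DKO against KI. Over all genes, DESeq2 called 1663, 997 and 542 in Hif1a KO against KI, Hif2a KO against KI and Hif1a KO against Hif2a KO, where edgeR called 925, 236 and 73. The replicate block gave 479, 76 and 19, limma on log2(TPM + 0.1) 552, 83 and 27 and on log2(TPM + 1) 29 in the last, and the fit of only the 2 groups 246, 2 and 132, with 1028 against 2164 in DKO against KI. The share of calls that were higher was 78.2% on log2(TPM + 1) and 51.9% in edgeR in KI against Cre(-), 70.6% and 53.4% in Hif2a KO against KI, 69.9% and 51.3% in DKO against KI, and 58.6% and 76.7% in Hif1a KO against Hif2a KO.

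Changes of sign occurred only in values that edgeR did not call. In Hif1a KO against KI, Pax8 was -0.007 with DESeq2, -0.006 with its size factors, -0.029 with the replicate block, -0.016 on both TPM scales and -0.027 to 0.019 without 1 replicate. Lhx1 was 0.003 with the replicate block and -0.089 to 0.032 without 1 replicate, and Pax2 was -0.09 to 0.055. Without 1 replicate, Hnf4a and Pax2 were -0.281 to 0.239 and -0.148 to 0.123 in Hif2a KO against KI, Lhx1 was -0.173 to 0.098 in DKO against KI, and Tfap2a and Gata3 were -0.051 to 0.1 and -0.022 to 0.261 in DKO against Cre(-). In Hif1a KO against Hif2a KO, Hnf4g, Pax2, Tfap2a and Gata3 were -0.236 to 0.031, -0.146 to 0.124, -0.154 to 0.069 and -0.303 to 0.097 without 1 replicate, and the replicate block gave Hnf4g 0.008. On log2(TPM + 1) and log2(TPM + 0.1), Lhx1 was 0.121 and 0.13 in DKO against KI, Tfap2a 0.1 and 0.119 in Hif1a KO and 0.119 and 0.136 in Hif2a KO against Cre(-), and Gata3 0.103 and 0.107 in Hif2a KO against Cre(-). The cause was not tested.

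Replicate numbers do not pair the mice: of 31 pairs with the same number 4 had a correlation over 0.1 (-0.223 to 0.249). With the replicate block, Gata3 in DKO against KI was 0.755 (adjusted p = 0.05916), and the block changed no other call of the 8 factors. On log2(TPM + 1), Tfap2b in DKO against Cre(-) was -0.052 (adjusted p = 0.7757), or -0.507 relative to the median of all genes, and Tfap2a was 0.541 (adjusted p = 0.008452). Of the 24 genes most like a factor, 10 were the same on that scale. Depth limits Hnf4g, which had 8 to 40 counts in Cre-carrying libraries.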
